A study of Rattus norvegicus with 4 samples.

Results

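Glucocorticoid response genes and receptors were followed on 4 Agilent 2-colour arrays labelled as rat spinal dorsal horn. The genes were taken from a given list of 10, by matching the accession of each array probe to the RefSeq table of rat genes. Of the 10 genes, 9 had at least 1 probe, among 22821 genes tested. The response genes were Sgk1, Fkbp5, Tsc22d3, Klf9, Zbtb16 and Errfi1, the receptors Nr3c1 and Nr3c2, and the enzyme Hsd11b1. Plin4, which codes for a coat protein of lipid droplets, matched no probe and was not analysed here. All 9 passed the filter on dim probes and were well above background in both channels on all 4 arrays. The members were selected on earlier results from the Cy5, Cy3 and ratio values of these same arrays, so their group differences are given as a description, with no test.

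The oxaliplatin group comprised 2 arrays and the vehicle group 2 arrays. The labels assign to Cy5 the dorsal horn RNA of male rats, 6 weeks old and sampled on day 10, that had received oxaliplatin (a platinum chemotherapy drug) or its vehicle. To Cy3 they assign, on all 4 arrays, dorsal horn RNA of untreated male rats of the same age, with no dye swap. The labels call the arrays of a group biological replicates. How many rats gave the RNA of an array, their strain and the dose of the drug are not stated in those labels.

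Corticosterone, the main glucocorticoid of the rat, enters cells and binds the glucocorticoid receptor (Nr3c1) and the mineralocorticoid receptor (Nr3c2), which chaperones hold ready in the cytosol. The bound receptor moves to the nucleus, attaches to glucocorticoid response elements in DNA and raises transcription of its targets. Sgk1 is a kinase that acts on ion channels and transporters. Fkbp5 is a cochaperone that lowers the hormone affinity of the receptor in a short feedback loop. Tsc22d3, also known as Gilz, restrains inflammatory transcription factors, while Klf9 and Zbtb16 are DNA-binding transcription factors and Errfi1 is an inhibitor of the epidermal growth factor receptor family. Hsd11b1 regenerates corticosterone from its inactive keto form inside cells. Several of these genes also answer to other signals, Sgk1 and Errfi1 among them.

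The promoters of the listed genes, 250 bases before to 50 after each transcript start in RefSeq (GRCr8), were searched on both strands for letters of the glucocorticoid response element and for neighbouring elements. The table held 16 promoters of 7 of the genes. Of these, 5 were of Plin4, most of them nearly the same window, so the 16 are not separate sequences. Zbtb16, Nr3c2 and Hsd11b1 had none. The promoters of Sgk1, Errfi1 and Klf9 are shown because these response genes lay furthest apart between the vehicle arrays in Cy3 (values below), and that of Fkbp5 because it lay nearest. They lie at chr1:24804782-24805081 (minus strand; the start nearest to the gene's end among the 3 listed for Sgk1), chr5:166606591-166606890 (plus strand), chr1:230126396-230126695 (plus strand) and chr20:6543506-6543805 (minus strand). Capitals mark TATAAA, the TATA box, and TGACG or its reverse complement CGTCA, the core of the cAMP response element.
Sgk1: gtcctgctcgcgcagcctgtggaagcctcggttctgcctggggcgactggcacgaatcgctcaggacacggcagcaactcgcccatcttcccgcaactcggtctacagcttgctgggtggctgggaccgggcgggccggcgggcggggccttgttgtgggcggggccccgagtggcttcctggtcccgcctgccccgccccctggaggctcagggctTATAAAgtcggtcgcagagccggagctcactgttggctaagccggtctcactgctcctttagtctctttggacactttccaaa
Errfi1: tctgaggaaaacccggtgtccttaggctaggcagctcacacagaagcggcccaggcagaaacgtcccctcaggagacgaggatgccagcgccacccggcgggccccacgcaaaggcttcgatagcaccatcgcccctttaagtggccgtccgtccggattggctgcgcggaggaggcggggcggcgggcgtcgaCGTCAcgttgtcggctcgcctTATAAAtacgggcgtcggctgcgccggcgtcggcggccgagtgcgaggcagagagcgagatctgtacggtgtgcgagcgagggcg
Klf9: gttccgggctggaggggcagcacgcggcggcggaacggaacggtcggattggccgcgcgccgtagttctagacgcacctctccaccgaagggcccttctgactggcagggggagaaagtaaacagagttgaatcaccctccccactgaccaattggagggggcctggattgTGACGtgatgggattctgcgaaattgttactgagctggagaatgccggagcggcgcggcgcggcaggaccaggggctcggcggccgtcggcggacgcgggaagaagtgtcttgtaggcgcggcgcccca
Fkbp5: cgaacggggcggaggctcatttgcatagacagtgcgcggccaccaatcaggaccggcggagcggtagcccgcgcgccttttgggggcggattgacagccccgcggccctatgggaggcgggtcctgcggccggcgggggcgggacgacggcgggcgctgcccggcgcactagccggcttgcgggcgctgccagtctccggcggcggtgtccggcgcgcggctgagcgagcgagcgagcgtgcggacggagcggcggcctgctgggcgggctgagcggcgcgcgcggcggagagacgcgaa
The hexamer AGAACA or its reverse complement TGTTCT, an arm of the glucocorticoid response element, was in 1 of the 16 promoters, at a start of Plin4, against 20.7% of the 33469 promoters in the table. The full palindrome, GNACA and TGTNC with 3 bases between these arms, was in 0 of the 16, against 0.439% of all. TATAAA was in 4 of the 16, against 14.2% of all. In the promoters shown this letter run began 33 bases before the start in Sgk1 and 35 bases before it in Errfi1. TGACG was in 3 of the 16, against 21.2% of all, and began 79 bases before the start in Klf9 and, as CGTCA, 56 bases before it in Errfi1. No match in these windows says only that these letters are not there, and elements further away were not searched.

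The response genes other than Zbtb16 spanned 0.13 to 0.31 (log2) over the 4 arrays in Cy5 and 0.78 to 2.77 in Cy3, and Zbtb16 spanned 0.52 in Cy5 and 0.68 in Cy3. For all 9 members the range over the 4 arrays was wider in Cy3 than in Cy5, as it was for 74.8% of all genes. In Cy3 the range was over 2-fold for 4 of the 9 (Sgk1, Tsc22d3, Errfi1 and Nr3c1), against 12.7% of all genes, and in Cy5 for 1 of the 9 (Nr3c1), against 6.13%. The median ranges over all genes were 0.30 in Cy5 and 0.48 in Cy3. Between the groups, both oxaliplatin arrays were above both vehicle arrays in Cy5 for Tsc22d3, Nr3c1 and Nr3c2, against 25.8% of all genes, and below them for Klf9 and Errfi1, against 33.3%. The second, dimmer probe of Nr3c2 had the opposite order of groups in Cy5 (spot signals below). In Cy3 they were above for Fkbp5, Nr3c1 and Nr3c2, against 25.1% of all genes, and below for 0 members, against 33.2%. The array with the lowest Cy3 level was vehicle replicate 1 for all 6 response genes and for none of the receptors or Hsd11b1, against 16.3% of all genes. The count of 6 was also found with quantile normalisation within the channel and with centring on the array median. Before normalisation, only Sgk1 and Tsc22d3 had their lowest Cy3 spot signal on vehicle replicate 1. Fkbp5, Klf9, Zbtb16 and Errfi1 had theirs on oxaliplatin replicate 2, where the median Cy3 signal over all probes was also lowest. In bulk tissue, fewer cells of a type and less RNA per cell cannot be told apart.

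**Figure D1:**
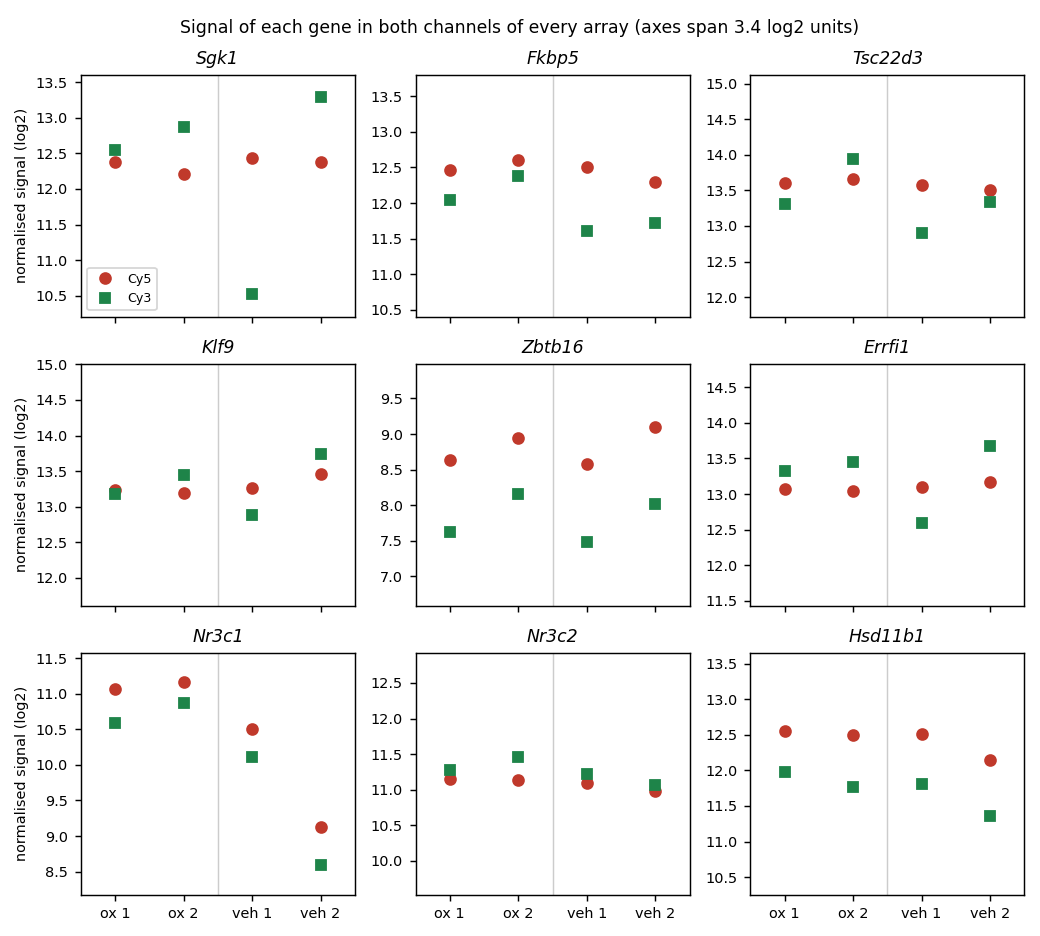
Normalised signal (log2, y axis) of the 9 genes in Cy5 (circles) and Cy3 (squares) on oxaliplatin replicates 1 and 2 (ox) and vehicle replicates 1 and 2 (veh). The Cy3 squares of Sgk1, Fkbp5, Tsc22d3, Klf9, Zbtb16 and Errfi1 are lowest on vehicle replicate 1, and both channels of Nr3c1 are lowest on vehicle replicate 2.

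Sgk1 stood furthest apart. Its normalised Cy3 level was 12.55 and 12.87 on oxaliplatin replicates 1 and 2, against 10.52 and 13.29 on vehicle replicates 1 and 2 (log2). Its Cy5 level was 12.38 and 12.21 on the oxaliplatin arrays, against 12.44 and 12.38 on the vehicle arrays. Vehicle replicate 1 was thus the lowest in Cy3 and not in Cy5, and vehicle replicate 2 was the highest in Cy3.
Before normalisation, the Cy3 spot signal of Sgk1 was 4432 and 3233 on the oxaliplatin arrays, against 1204 and 7215 on the vehicle arrays, as means of 2 spots. Vehicle replicate 2 was 6.82-fold over vehicle replicate 1 in normalised Cy3 and 0.962-fold in Cy5. Over all genes, 0.0570% had a larger difference in Cy3 between the vehicle arrays. In the Cy5/Cy3 ratio, Sgk1 ranked 3 of 22821 genes by the size of that difference. These 2 arrays were of the same group and the same slide but of different scans, and the part of the scan in the gap was not tested. Of the 9 members, vehicle replicate 1 was more than 2-fold under vehicle replicate 2 in Cy3 for Sgk1 and Errfi1, against 0.491% of all genes, and more than 2-fold over it for Nr3c1, against 3.05%. In Cy5 these arrays were more than 2-fold apart for Nr3c1, against 3.06% of all genes.

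Errfi1 and Klf9 followed the same order of arrays at a smaller size. The Cy3 level of Errfi1 was 13.32 and 13.45 on the oxaliplatin arrays, against 12.59 and 13.67 on the vehicle arrays. That of Klf9 was 13.17 and 13.45 on the oxaliplatin arrays, against 12.88 and 13.74 on the vehicle arrays. For both, vehicle replicate 1 was lowest and vehicle replicate 2 highest, so the oxaliplatin arrays lay between the vehicle arrays. Vehicle replicate 2 was over vehicle replicate 1 in Cy3 by 2.12-fold for Errfi1 and by 1.82-fold for Klf9. Their Cy5 levels spanned 0.13 and 0.26 (log2).

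Tsc22d3 and Fkbp5 were highest in Cy3 on oxaliplatin replicate 2. The Cy3 level of Tsc22d3 was 13.31 and 13.95 on the oxaliplatin arrays, against 12.91 and 13.34 on the vehicle arrays, where the groups overlap by a small margin. That of Fkbp5 was 12.04 and 12.38 on the oxaliplatin arrays, against 11.61 and 11.73 on the vehicle arrays, where they do not overlap. In Cy5, Fkbp5 was at 12.46 and 12.61 on the oxaliplatin arrays, against 12.50 and 12.30 on the vehicle arrays, and the groups overlap.
The normalised Cy3 level of Zbtb16 was 7.62 and 8.15 on the oxaliplatin arrays, against 7.48 and 8.02 on the vehicle arrays, where the groups overlap. Before normalisation its Cy3 spot signals were low and in another order, 143 and 129 on the oxaliplatin arrays, against 151 and 191 on the vehicle arrays. Its Cy5 and Cy3 levels moved together from array to array, with vehicle replicate 1 under vehicle replicate 2 by 0.52 in Cy5 and 0.54 in Cy3 (log2), so its ratio hardly differed between these arrays.

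**Figure D2:**
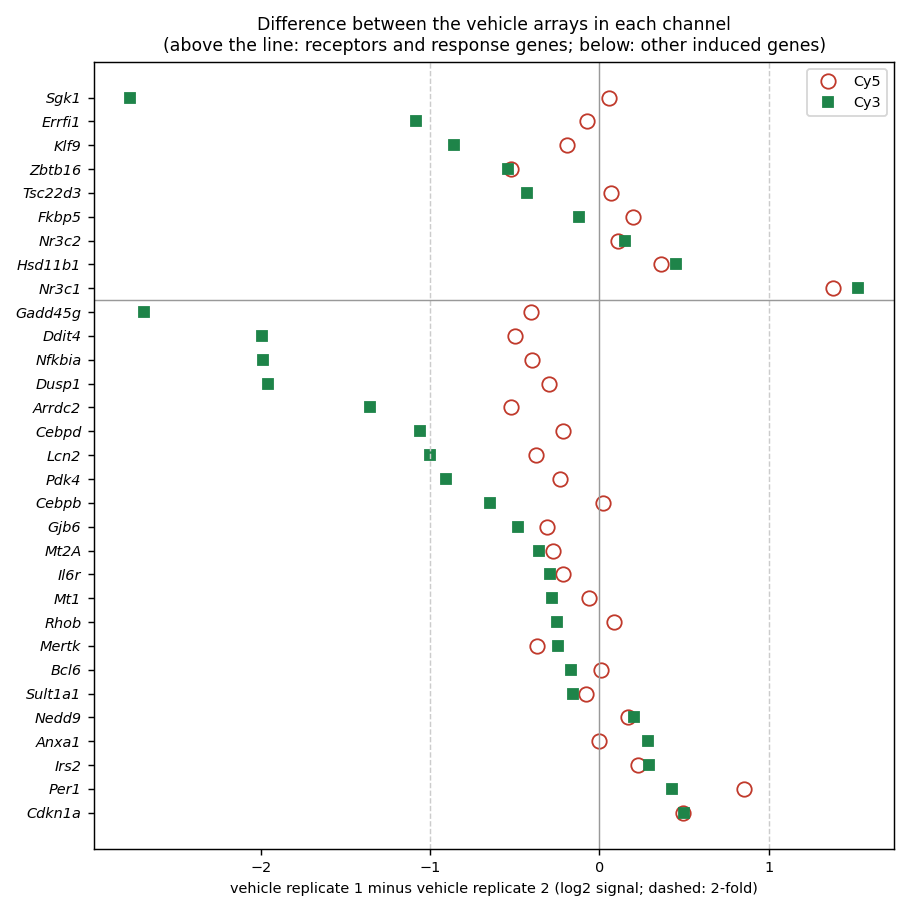
Vehicle replicate 1 minus vehicle replicate 2 (log2 signal, x axis) in Cy5 (open circles) and Cy3 (squares) for the 9 genes above the horizontal line and 22 other glucocorticoid induced genes under it. Sgk1 lies at -2.77 in Cy3 and 0.056 in Cy5, and 7 of the 22 other genes lie under -1 in Cy3.

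The comparison of the oxaliplatin with the vehicle arrays asks whether the drug changes these transcripts in the dorsal horn. Its direction in the animals is unsettled: the labels place the treated RNA in Cy5, but the protocol given for the extracts names no dye except Cy3. The wider range of the members in Cy3 than in Cy5 cannot decide it. They were selected on these values, and 74.8% of all genes had such a range. The labels name the dorsal horn for both channels. Markers of sensory ganglia had median log2 Cy5/Cy3 ratios of 4.24 to 5.13 on the 4 arrays and those of the forebrain 3.75 to 4.24. Dorsal horn markers had medians of -0.83 to -0.48. Which tissue gave the Cy5 RNA was not tested. Each difference below is the mean log2 Cy5/Cy3 ratio of the oxaliplatin arrays less the mean of the vehicle arrays. A lower ratio is a lower level after oxaliplatin relative to Cy3 if Cy5 held the treated RNA, and a higher level relative to Cy5 if Cy3 held it.

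All 9 members had a lower ratio on the oxaliplatin arrays, with a median difference of -0.19 against 0.0055 over all genes, but most of the differences were small or rested on 1 array. The count was 6 of 9 without vehicle replicate 1, 7 of 9 without oxaliplatin replicate 2, and 6 of 9 with median centring in place of loess. By limma's moderated test over all genes, 0 genes passed an adjusted p of 0.05 and 3342 (14.6%) had an unadjusted p under it. Both oxaliplatin ratios lay below both vehicle ratios for 3 of the 9 (Fkbp5, Zbtb16 and Nr3c2), against 22.2% of all genes, and above them for 0, against 27.0%. In either direction the groups were apart for 49.2% of all genes. An exact permutation of 2 against 2 arrays cannot give a two-sided p below 0.333. The oxaliplatin arrays shared 1 slide and the vehicle arrays another, so slide and group cannot be told apart.

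Fkbp5 had ratios of 0.42 and 0.22 on the oxaliplatin arrays, against 0.90 and 0.57 on the vehicle arrays. The groups did not overlap, and the difference was -0.41 ± 0.15 (SE, n = 2 arrays per group, log2). It was -0.57 to -0.25 with each array left out in turn. The Cy3 level was higher on the oxaliplatin arrays by 0.55 and the Cy5 level by 0.13.
Sgk1 had ratios of -0.17 and -0.66 on the oxaliplatin arrays, against 1.91 and -0.91 on the vehicle arrays. The oxaliplatin arrays lay between the vehicle arrays. The difference was -0.92 ± 0.79. Without vehicle replicate 1 it was 0.50, and leaving out vehicle replicate 2 gave -2.33, so the sign turned on which vehicle array was kept.
Errfi1 differed by -0.33 ± 0.30, Klf9 by -0.14 ± 0.23 and Tsc22d3 by -0.41 ± 0.23, each with groups that overlap. Without vehicle replicate 1, Errfi1 was at 0.18 and Klf9 at 0.20, while Tsc22d3 was at -0.16. Tsc22d3 was at -0.12 without oxaliplatin replicate 2 and at -0.70 without oxaliplatin replicate 1. Zbtb16 had ratios of 1.02 and 0.79 on the oxaliplatin arrays, against 1.102 and 1.083 on the vehicle arrays, a difference of -0.19 ± 0.13 that was -0.074 without oxaliplatin replicate 2.

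**Figure D3:**
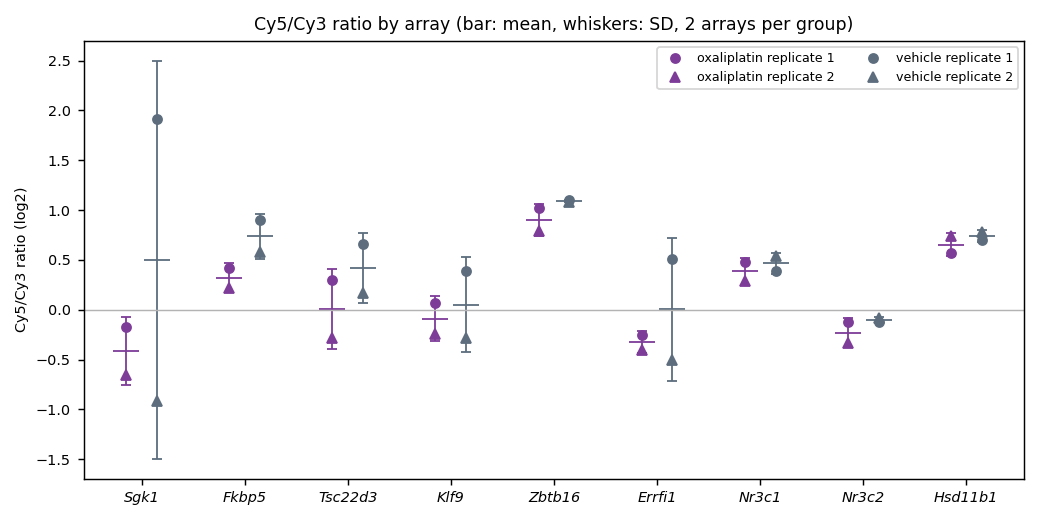
Log2 Cy5/Cy3 ratio (y axis) of the 9 genes on the oxaliplatin arrays (left of each pair) and the vehicle arrays (right), with the mean and SD of 2 arrays per group. The vehicle arrays of Sgk1 lie at 1.91 and -0.91, on either side of both oxaliplatin arrays, and the groups are apart for Fkbp5, Zbtb16 and Nr3c2.

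**Figure D4:**
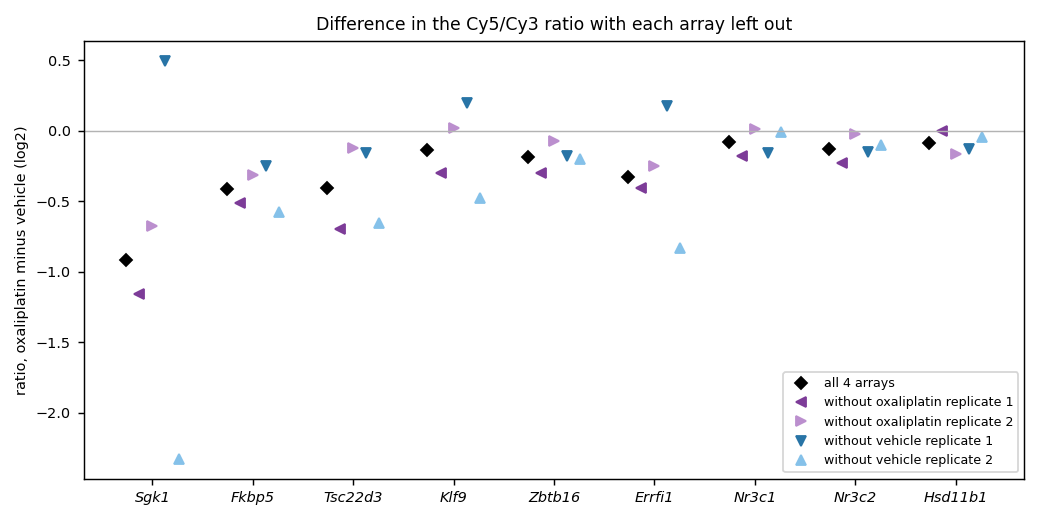
Difference in the log2 Cy5/Cy3 ratio, oxaliplatin minus vehicle (y axis), of the 9 genes with all 4 arrays (diamonds) and with each array left out (triangles). Without vehicle replicate 1, Sgk1 is at 0.50, Klf9 at 0.20 and Errfi1 at 0.18, on the other side of 0 from their values with all arrays.

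The receptors and the enzyme had ratios that differed little between the groups. Nr3c2 had ratios of -0.13 and -0.33 on the oxaliplatin arrays, against -0.13 and -0.079 on the vehicle arrays, a difference of -0.13 ± 0.12. Oxaliplatin replicate 1 and vehicle replicate 1 were nearly equal, so that oxaliplatin replicate 2 made most of it, and without that array it was -0.025. Hsd11b1 had ratios of 0.57 and 0.74 on the oxaliplatin arrays, against 0.70 and 0.78 on the vehicle arrays, a difference of -0.085 ± 0.12 with groups that overlap. With median centring, Nr3c2 was at 0.040 and Hsd11b1 at 0.078.

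Nr3c1, the glucocorticoid receptor, differed between arrays in both channels at once. The Cy5 level of the probe used (A_44_P1003794) was 11.07 and 11.16 on the oxaliplatin arrays, against 10.51 and 9.13 on the vehicle arrays. The Cy3 level was 10.59 and 10.87 on the oxaliplatin arrays, against 10.11 and 8.59 on the vehicle arrays. In each channel both oxaliplatin arrays were above both vehicle arrays, by 1.30 in Cy5 and 1.38 in Cy3 on average, and vehicle replicate 2 was the lowest.
The ratios of that probe were 0.48 and 0.29 on the oxaliplatin arrays, against 0.39 and 0.54 on the vehicle arrays, a difference of -0.082 ± 0.13 with groups that overlap. The difference was 0.11 with median centring and 0.013 without oxaliplatin replicate 2.
The second probe of Nr3c1 (A_64_P269447) differed less between arrays. Its Cy5 spot signal was 231 and 246 on the oxaliplatin arrays, against 208 and 202 on the vehicle arrays, in the same order of groups as the probe used. That probe had 3295 and 3734 on the oxaliplatin arrays, against 1944 and 749 on the vehicle arrays. In Cy3 the second probe had 182 and 106.8 on the oxaliplatin arrays, against 152 and 112 on the vehicle arrays, while the probe used had 1174 and 824 on the oxaliplatin arrays, against 950 and 297 on the vehicle arrays. These are signals before normalisation, and the median Cy3 signal over all probes was also lowest on oxaliplatin replicate 2. The second probe differed in the ratio by -0.17. For Nr3c2, the second probe (A_64_P014537) differed in the ratio by -0.20, in the same direction as the probe used. The single channels of this second probe were lower on the oxaliplatin arrays. Its Cy5 spot signal was 115 and 130.5 there, against 184 and 186.75 on the vehicle arrays, and its Cy3 signal 85 and 67, against 102.75 and 98.75. In Cy5 the Nr3c2 probe used had 3541 and 3671 on the oxaliplatin arrays, against 2885 and 2748 on the vehicle arrays.

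**Figure D5:**
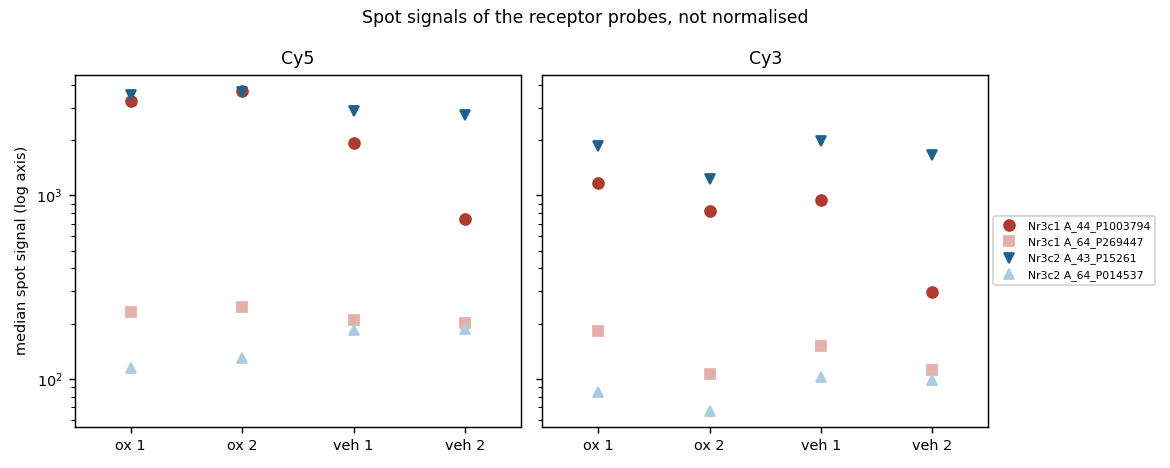
Median spot signal (y axis, log scale, not normalised) of both probes of Nr3c1 and of Nr3c2 in Cy5 (left) and Cy3 (right) on the oxaliplatin (ox) and vehicle (veh) arrays. The Nr3c1 probe used is lowest on vehicle replicate 2 in both channels, at 749 and 297, while the second one is at 202 and 112 there.

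Over all 4 arrays, Cy5 was above Cy3 for Zbtb16, Hsd11b1, Fkbp5 and, by the probe used, Nr3c1. The mean log2 ratio was 1.00 ± 0.14 for Zbtb16, 0.70 ± 0.091 for Hsd11b1, 0.53 ± 0.28 for Fkbp5 and 0.43 ± 0.11 for Nr3c1 (SD, n = 4 arrays). The second, dimmer probe of Nr3c1 had ratios of -0.36 and -0.16 on the oxaliplatin arrays, against -0.22 and 0.044 on the vehicle arrays. Nr3c2, by the probe used, was at -0.17 ± 0.11 and below 0 on all 4 arrays. Tsc22d3 was at 0.21 ± 0.39, Klf9 at -0.020 ± 0.31 and Errfi1 at -0.16 ± 0.46. No test is given for these members, whose ratios were known when they were listed. Of all genes, limma's test against 0 (adjusted p under 0.05) called 29.3% with Cy5 higher and 26.3% with Cy5 lower. Sgk1, at 0.044 ± 1.28, had the widest spread of the 9. With no dye swap, dye and RNA source cannot be told apart in these means.

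A list of 24 other genes known to be induced by glucocorticoids was made with earlier results of these data known, so its counts are descriptive. Of these genes, 22 were measured. Their Cy3 level was lower on vehicle replicate 1 than on vehicle replicate 2 for 17 of the 22, as for 12901 of all 22821 genes. The difference was over 2-fold for 7 of the 22, all lower on vehicle replicate 1, against 0.491% of all genes. Vehicle replicate 1 was the lowest of the 4 arrays in Cy3 for 11 of the 22, against 16.3% of all genes. Ddit4, an inhibitor of mTOR signalling, was at 13.39 and 13.56 in Cy3 on the oxaliplatin arrays, against 12.72 and 14.72 on the vehicle arrays. Dusp1, a phosphatase that switches off MAP kinases, was at 8.37 and 8.52 on the oxaliplatin arrays, against 8.13 and 10.09 on the vehicle arrays. Both had the oxaliplatin arrays between the vehicle arrays, as Sgk1 did. Gadd45g (-2.69), Nfkbia (-1.99), Arrdc2, Cebpd and Lcn2 made up the 7 and were named after their values were seen. Many of these genes are also induced by other stimuli. Cdkn1a, a cell cycle inhibitor, was on the opposite side, higher in Cy3 on vehicle replicate 1 than on vehicle replicate 2 by 0.50, and Per1 was higher there by 0.43.

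In the ratio of oxaliplatin to vehicle, these 22 genes had no common direction, with 12 higher, 10 lower and a median difference of 0.099, and 0 of them passed. The groups were apart with higher ratios for 5 of the 22, against 27.0% of all genes, and with lower ratios for 4, against 22.2%. Per1, a clock gene with a glucocorticoid response element in its promoter in mammals, had ratios of 2.55 and 2.40 on the oxaliplatin arrays, against 1.82 and 1.40 on the vehicle arrays. Its difference of 0.86 ± 0.17 (SE) lay in Cy5, which was higher by 0.76 on the oxaliplatin arrays, while Cy3 differed by -0.11. Gjb6, an astrocyte connexin, differed by 0.58 ± 0.20 (0.28 without oxaliplatin replicate 2 and 0.88 without oxaliplatin replicate 1) and the metallothionein Mt1 by 0.36 ± 0.13. Sult1a1, a sulphotransferase, had mean ratios of 1.67 on the oxaliplatin arrays and 2.35 on the vehicle arrays, apart between the groups, a difference of -0.68 ± 0.15. Bcl6, a transcriptional repressor, differed by -0.41 ± 0.17 (-0.21 without oxaliplatin replicate 2 and -0.62 without oxaliplatin replicate 1) and Mertk, a receptor for phagocytosis, by -0.31 ± 0.12. Cdkn1a differed by 0.12 ± 0.11. Dusp1 differed by 0.54 ± 0.47, and by -0.29 without vehicle replicate 2. Pdk4, a kinase that restrains glucose oxidation, differed by -0.13 ± 0.23, and by 0.20 without vehicle replicate 1. Ddit4 differed by -0.043 ± 0.43, and by 0.70 without vehicle replicate 1. The sign of Pdk4 also turned without oxaliplatin replicate 2, and that of Ddit4 without that array, with median centring and with the mean over its probes.

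The chaperones and cofactors of the receptors differed in both directions. Of 16 measured, 7 had higher and 9 lower ratios on the oxaliplatin arrays, with a median difference of -0.050, and 0 passed. The groups were apart for 6 of the 16 with higher ratios, against 27.0% of all genes, and for 4 with lower ratios, against 22.2%. Fkbp4, the cochaperone that exchanges with Fkbp5 on the receptor, had ratios of -0.27 and -0.17 on the oxaliplatin arrays, against -0.40 and -0.76 on the vehicle arrays, a difference of 0.36 ± 0.15. This was opposite in sign to the difference of Fkbp5. The phosphatase Ppp5c, which binds the receptor complex, differed by 0.35 ± 0.15. Hspa4, an Hsp70 cochaperone, differed by -0.45 ± 0.12 and the cyclophilin Ppid by -0.23 ± 0.12. Of the Hsp90 genes, Hsp90ab1 differed by 0.34 ± 0.13 and Hsp90aa1 by -0.38 ± 0.15, while the means over all their probes gave 0.57 for Hsp90ab1 and 0.011 for Hsp90aa1. Ptges3, the p23 cochaperone, differed by -0.18 ± 0.12, and by -0.031 with median centring. With 1 array left out, Ppp5c was at 0.18 without oxaliplatin replicate 2, Hsp90aa1 at -0.22 without that array, and Fkbp4 at 0.18 and Ppid at -0.15 without vehicle replicate 2. In Cy3 between the vehicle arrays, 0 of the 16 differed over 2-fold.

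Of the genes for steroid metabolism and supply, 14 were measured, 7 with higher and 7 with lower ratios, with a median difference of 0.0079, and 0 passed. Srd5a1, the 5-alpha-reductase that clears corticosterone and makes neurosteroids, had ratios of -0.90 and -0.55 on the oxaliplatin arrays, against -1.53 and -1.61 on the vehicle arrays. Its difference was 0.84 ± 0.15, made up of -1.14 in Cy3 and -0.29 in Cy5 between the group means. Hsd11b2, which inactivates corticosterone, differed by -0.0071 ± 0.15, and H6pd, which supplies the cofactor of Hsd11b1, by -0.14 ± 0.13. The peptide gene Crh, which drives the adrenal axis from the hypothalamus, differed by -0.43 ± 0.15 (-0.22 as the mean of its probes) and Pomc, the precursor of corticotropin, by 0.29 ± 0.16. Pomc was at 0.097 without oxaliplatin replicate 1 and at 0.49 without oxaliplatin replicate 2, and Crh at -0.24 without the second of these arrays. H6pd ranged over -0.24 to -0.040 as each array was left out, and Hsd11b2 over -0.17 to 0.16. Cyp11b2, the aldosterone synthase, was not well above background in Cy3 on either oxaliplatin array, and its ratio is not given.

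The genes most like the response genes were sought by the distance of their 8 single-channel values (2 channels on 4 arrays, each centred on its mean) from the mean profile of the 6 response genes. The nearest were Msx1, Map3k6, Pdk4, Rgs1, Fos and Vsig2, at root mean square distances of 0.079, 0.082, 0.085, 0.092, 0.11 and 0.11 (log2). Of the response genes, Errfi1 was at 0.084 and Sgk1 at 0.48 from that profile. For Sgk1, 88.5% of all genes lay nearer to the profile, so it describes Sgk1 poorly. That share was 0.00876% for Errfi1 and at most 5.51% (Fkbp5) for the other response genes. Map3k6 had Cy3 levels of 8.86 and 9.23 on the oxaliplatin arrays, against 8.07 and 9.30 on the vehicle arrays. Fos, an immediate early transcription factor, had Cy3 levels of 10.42 and 10.695 on the oxaliplatin arrays, against 9.94 and 10.52 on the vehicle arrays. All 6 were lowest in Cy3 on vehicle replicate 1, as was the profile they were picked by, so this follows from the selection. Sgk1 itself was nearest to Depp1 (0.21), Apold1 (0.27) and Tmem212 (0.32), a search made after the data were seen. The likeness rests on 4 arrays and describes only these values.

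Markers of the cells in the samples were read beside these values. Of the markers of the spinal dorsal horn, 10 of 12 were measured. All 10 were well above background in Cy3 on at least 1 array. So were all but 77 of the 22821 genes tested, the measured markers of sensory ganglia and the forebrain included. The dorsal horn markers had median log2 Cy5/Cy3 ratios of -0.83 to -0.48 on the 4 arrays. Cy5 also carried markers of sensory ganglia (7 of 8 measured, median ratios of 4.24 to 5.13) and of the forebrain (7 of 8 measured, 3.75 to 4.24) on all 4 arrays. Between the vehicle arrays, the summed Cy3 signal of the 4 measured red cell genes was 34486 on replicate 1 and 66131 on replicate 2, and on the oxaliplatin arrays 13118 and 59247. All 4 were lower in Cy3 on vehicle replicate 1 than on replicate 2. The endothelial markers were lower there for 6 of 8 (median difference -0.27), microglia for 6 of 8 (-0.17), astrocytes for 4 of 8 (0.057) and oligodendrocytes for 4 of 8 (-0.13). Of the markers of these 5 cell types only Alas2, a red cell gene, differed over 2-fold in Cy3 between the vehicle arrays. Among the sensory ganglion markers 1 did, Calca, which was higher on vehicle replicate 1 by 2.14 (log2). The part of these cells in the values of the response genes was not tested. The median Cy3 spot signal was 494 and 283.5 on the oxaliplatin arrays, against 564 and 530 on the vehicle arrays, so the vehicle arrays were alike in overall Cy3 signal.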

How the data were processed

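The deposited data are scanner files of 4 Agilent 2-colour arrays and a value table. The intensity of spots and of their local background comes, per the file headers, from Agilent Feature Extraction 10.7.1.1 (the submitters' processing notes name 8.5.1.1). Flags mark outlier spots and spots above background. The authors' value table holds log10 ratios of Cy5 over Cy3, and for 100% of 62969 spots these equalled the scanner's ratio within 0.006.

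Median signals were corrected with normexp (offset 50) and loess in limma 3.58.1 (R 4.3.3). Control spots and outlier spots were left out. Probes with Cy5 well above background on at least 2 arrays were kept (26002 of 30367), and the brightest probe stood for a gene. Single channels were normalised by Aquantile. Groups, from the sample titles, were compared by lmFit and eBayes (2 residual and 4.74 prior degrees of freedom), adjusted after Benjamini and Hochberg. P-values cover the spread between these arrays only, and the number of arrays limits the precision. In data simulated for this comparison (22821 genes), 74% of 100 genes changed 2-fold and 99% of 100 changed 4-fold were recovered. There were 2 false calls. The simulated noise was independent between genes and arrays, with no effect of array or slide, so the shares may not hold for the arrays.

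The members and gene lists were chosen with earlier results of these data known. Named genes were all members, 11 pathway genes whatever their values, per pathway list up to 3 in each direction with the largest difference and groups apart, and the 6 genes nearest the mean profile of the response genes (6 of 7, without Plin4). Of the genes this rule names, 1 is not reported here. Alternatives were no background subtraction, the scanner's ratio, median centring, scaling, no filter, the mean over probes, a replicate block and each array left out. Sequences are RefSeq's (GRCr8). Distances between genes and single-channel alternatives were added after the data were seen.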

Additional observations from a re-analysis of the deposited data

How the results depend on the processing

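The median difference of the members was -0.21 to -0.17 under the 7 alternatives that kept all arrays and -0.48 to -0.12 with an array left out, where the SD between arrays of a group of the members' median ratio was 0.37. Members with a lower ratio numbered 6 to 9 of 9 under all alternatives. Of 99 pairs of a member and an alternative, 90 had the same sign as with the main settings. Besides those given with the results, the sign of Hsd11b1 turned with scaled ratios (0.019) and that of Klf9 without oxaliplatin replicate 2 (0.018). Members with groups apart numbered 2 to 4 of 9 with all arrays, where 47% to 56.4% of all genes were apart. Such members numbered 4 to 8 with an array left out, where 67.8% to 81.7% of all genes were apart, as fewer arrays can overlap. The count of genes that passed in the group comparison was 0 under 6 alternatives, 3 with the replicate block, and 2 to 937 with an array left out, where the lone array is assumed to vary like the other group. It was 937 when oxaliplatin replicate 1 was left out, 15 for oxaliplatin replicate 2, 33 for vehicle replicate 1 and 2 for vehicle replicate 2. The genes that passed the test of the ratio against 0 numbered 9324 to 13940, within 1.5 times the main count of 12694. The replicate numbers are not stated to pair animals. Over genes, the deviations of same-numbered arrays from their group means correlated by -0.22, so the numbers were not used as pairs. With quantile normalisation within Cy3, 3 of 9 members had Cy3 levels higher on both oxaliplatin arrays, as with the main settings, where 25.1% of all genes did. With array median centring 5 did, and the cause was not tested. The share of all genes was not computed under either alternative, so these counts have no share to be read against. Hsd11b2 turned its sign under 4 alternatives. With median centring, Ptges3 (-0.031), Hspa4 (-0.27), Ppid (-0.11) and Sult1a1 (-0.49) moved toward 0 by over their SD between arrays. Mertk (-0.41), H6pd (-0.29) and Cdkn1a (0.27) moved as far away from 0. With scaled ratios, Crh (-0.10), Sult1a1 (-0.43) and Cdkn1a (0.091) moved toward 0 and Per1 (1.14) away from it. Low spot signals limit the values of Zbtb16 and of the second probes of Nr3c1 and Nr3c2.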
